A study of Mus musculus with 12 samples.

Results

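The genes that write and copy DNA methylation were followed across all libraries of a study of mouse embryonic stem cells. The set was chosen by name: the methyltransferase genes Dnmt1, Dnmt3a and Dnmt3b, the catalytically inactive cofactor gene Dnmt3l, and the related genes Uhrf1 and Uhrf2. All 6 were found among the 39179 counted genes, and all 6 passed the filter on low counts in every comparison. Total RNA was sequenced from 12 libraries in 4 groups to ask how cells with active BMP signalling, or without its transcription factors SMAD1 and SMAD5, differ from their controls.

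The reporter cells had the genotype BRE-GFP, in which GFP is driven by a BMP response element (BRE), and the strain mixed CBA, C57Bl/6. They grew in FCS + Lif on feeders, are labelled naïve, and were sorted on SSEA1 and GFP into a BRE-negative and a BRE-positive fraction. Each fraction has 3 libraries, and each collection gave 1 library of both fractions. The Smad1/5 cells had a mixed background of C57Bl/6, 129/Ola and CD-1, grew in 2i + Lif on gelatin and are labelled ground state. Here 2 floxed libraries (FL, Smad1/5 fl/fl) stand against 4 knockout libraries (KO, Smad1/5 -/-). There are 2 parental lines, and each gave 1 FL library and a pair of KO libraries, without a label that ties a library to its line. Clones, sexes and passages are not given, and no separate cultures are described. A p-value here therefore covers only the spread among these libraries, which may be technical.

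DNA methylation in mammals sits mainly on cytosines followed by guanine (CpG). DNMT3A and DNMT3B place it on unmethylated DNA, and DNMT3L binds and stimulates both without activity of its own. After replication UHRF1 recognises half-methylated sites and brings in DNMT1, which copies the mark to the new strand, and UHRF2 is a related protein that does not replace UHRF1 in this role. Embryonic stem cells in serum are known to carry highly methylated DNA, and the 2 inhibitors of 2i medium (of MEK and GSK3) are known to lower it. Methylation itself was not measured here: every value below is an RNA level.

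Library totals lay between 25862573 and 37319846 counts. All 8 embryonic stem cell markers, among them Pou5f1 and Sox2, were detected in every library, with summed TPM of 6996 to 9376. The deleted genes cannot check the labels, because the labels do not say which exons were removed and whole-gene counts remained: Smad1 had 643 and 665 counts in FL against 373 to 619 in KO, and Smad5 1136 and 1153 against 880 to 1176. The summed TPM of 12 feeder fibroblast markers was 34.7 to 78.6 in the BRE-negative fraction. It was 23.0 to 72.5 in the BRE-positive fraction, with no marker at 0 in either. In FL they summed to 6.52 and 8.70 and in KO to 6.32 to 7.48, with 1 to 6 of the 12 at 0. In bulk RNA, fewer cells of a type and less RNA per cell cannot be told apart. KO replicates 3 and 4 were more alike than any other pair of one group (median chi-square 1.23 per gene, against 2.49 to 7.13 in the others and 0.455 for pure counting noise).

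In GENCODE M21 (GRCm38, 1-based), Dnmt3b lies on chromosome 2 from 153649450 to 153687730 (plus strand) and Dnmt3l on chromosome 10 from 78041947 to 78063622 (plus strand). Dnmt3b overlaps the antisense gene Dnmt3bos, Dnmt3a (chromosome 12, 3806007 to 3914443, plus) overlaps Dnmt3aos, and Dnmt3l overlaps Aire on the opposite strand. Because the strand setting of the counting is not given, reads of such partners may not be told apart. Dnmt1 lies on chromosome 9 (20907209 to 20959888, minus), Uhrf1 on chromosome 17 (56303321 to 56323486, plus) and Uhrf2 on chromosome 19 (30030513 to 30093722, plus).

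Dnmt3b and Dnmt3l are the genes whose RNA passed the test between KO and FL, so the 250 bases before their annotated starts are shown (RefSeq, GRCm38.p6). RefSeq gives 1 start for Dnmt3b (chr2:153649199-153649448, plus strand) and 3 for Dnmt3l (chr10:78042037-78042286, chr10:78049592-78049841 and chr10:78055085-78055334, plus strand). Capitals mark CpG dinucleotides.
Dnmt3b: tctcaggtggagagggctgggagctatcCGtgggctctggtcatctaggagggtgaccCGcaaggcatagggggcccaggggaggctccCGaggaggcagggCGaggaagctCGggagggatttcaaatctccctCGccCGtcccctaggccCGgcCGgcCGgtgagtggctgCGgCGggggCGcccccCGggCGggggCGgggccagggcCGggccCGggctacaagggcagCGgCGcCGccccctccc
Dnmt3l, start 1: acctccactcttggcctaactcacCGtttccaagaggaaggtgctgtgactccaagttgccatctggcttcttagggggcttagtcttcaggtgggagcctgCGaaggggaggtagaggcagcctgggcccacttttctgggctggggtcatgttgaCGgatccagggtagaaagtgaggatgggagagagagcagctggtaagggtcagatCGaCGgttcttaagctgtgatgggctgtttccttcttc
Dnmt3l, start 2: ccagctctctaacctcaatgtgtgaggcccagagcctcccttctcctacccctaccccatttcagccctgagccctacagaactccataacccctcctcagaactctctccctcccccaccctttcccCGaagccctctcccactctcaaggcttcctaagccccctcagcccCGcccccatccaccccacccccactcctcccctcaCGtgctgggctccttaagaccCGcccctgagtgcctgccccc
Dnmt3l, start 3: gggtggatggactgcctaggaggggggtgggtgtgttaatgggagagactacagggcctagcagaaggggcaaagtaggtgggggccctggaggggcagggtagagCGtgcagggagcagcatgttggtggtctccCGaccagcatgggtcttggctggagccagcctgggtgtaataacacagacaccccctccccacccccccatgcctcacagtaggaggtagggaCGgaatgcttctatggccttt
The Dnmt3b window holds 21 CpG, against 5, 4 and 3 in the windows of Dnmt3l and a median of 6 over 32841 windows of the same length. It also holds 2 copies of GGCGCC, a GC-rich site described for BMP-activated SMAD proteins, which reads the same on both strands and occurs in 9.59% of all windows. That share was not matched for CpG content. The site is not particular to Dnmt3b in the set: 1 copy lies in each of the 3 Dnmt3a windows, in 1 of the 3 Dnmt1 windows and in the Uhrf2 window. The part of the site in any difference between KO and FL was not tested. None of the windows of Dnmt3l and Uhrf1 holds it. The palindrome GTCTAGAC and the E2F sites TTTGGCGC and TTTCCCGC, searched on both strands, occur in 0.167%, 0.417% and 0.895% of all windows and in none of the 13 windows of the 6 genes. A match or its absence describes these letters in this window, and which start of Dnmt3l is used was not measured.

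Levels of each gene are given first as CPM, counts scaled to library size with TMM factors, which compare libraries and not genes. Dnmt1 had 411, 406 and 395 CPM in the BRE-negative libraries and 349.8, 370.4 and 354.5 in the BRE-positive ones. It had 492 and 482 CPM in FL and 573, 529, 551 and 564 in KO. By CPM the 4 groups of Dnmt1 did not overlap, and the order ran from KO down through FL and BRE-negative to BRE-positive. The CPM spread inside a group was at most 1.08-fold. By the deposited TPM the reporter fractions of Dnmt1 did overlap. There the BRE-positive libraries spanned 133.8 to 167.6, a 1.25-fold spread, which enclosed the BRE-negative span of 154.5 to 164.9. Dnmt1 did not pass the test in the main fit of any comparison below.

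Uhrf1 had 382, 439.6 and 354 CPM in BRE-negative and 387, 390.5 and 331 in BRE-positive libraries. It had 663 and 622 CPM in FL and 715, 772, 716 and 729 in KO. The reporter fractions overlapped, while both Smad1/5 groups lay above them without overlap. Uhrf2 ran the other way, with 92.5, 87.9 and 85.9 CPM in BRE-negative, 97.0, 82.7 and 88.5 in BRE-positive, 70.2 and 65.4 in FL, and 53.7, 64.25, 62.7 and 60.7 in KO. Its reporter fractions overlapped each other, and both lay above FL and KO.

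The de novo genes varied more between reporter libraries of the same fraction. Dnmt3a had 101, 233 and 134.5 CPM in BRE-negative and 95.3, 199.8 and 123 in BRE-positive libraries. It had 72.95 and 69.65 CPM in FL and 54.8, 55.9, 65.8 and 67.7 in KO. Collection 2 gave the highest value in both reporter fractions, and all Smad1/5 libraries lay below all reporter libraries.

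Dnmt3b had 168, 123 and 72.3 CPM in BRE-negative and 132, 91.2 and 61.9 in BRE-positive libraries. It had 267 and 310.3 CPM in FL and 382, 455, 573 and 579.8 in KO. Collection 1 was highest and collection 3 lowest in both fractions, and every KO library lay above both FL libraries. Dnmt3l had 129.6, 134 and 65.55 CPM in BRE-negative, 143, 136 and 74.2 in BRE-positive, 213 and 182 in FL, and 255, 321, 370.4 and 368 in KO. Collection 3 was the low one for Dnmt3l in both fractions, and KO lay above FL without overlap.

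**Figure D1:**
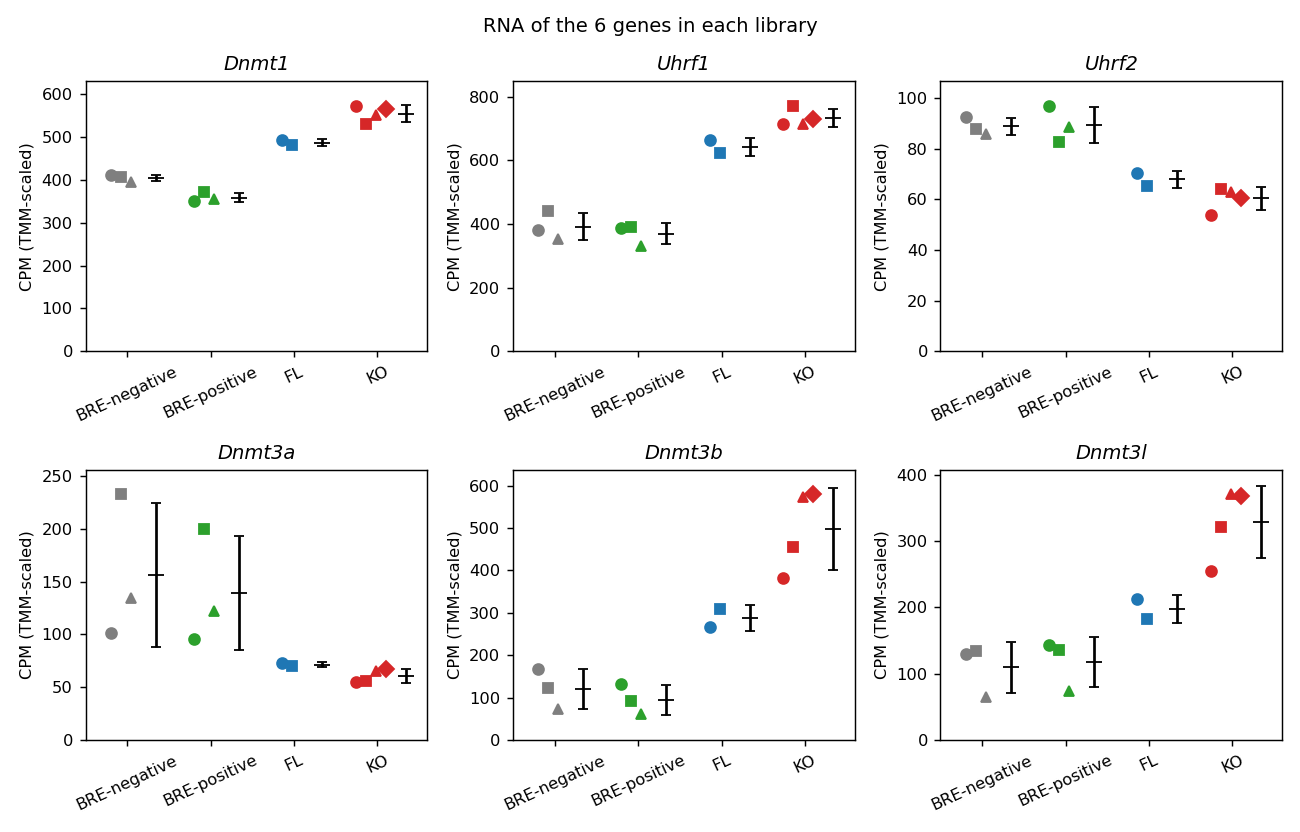
CPM of each gene (linear axes from 0) in the BRE-negative, BRE-positive, FL and KO libraries. Each point is 1 library, its shape giving the replicate number (circle 1, square 2, triangle 3, diamond 4), and black bars give the mean ± SD (n = 3, 3, 2 and 4); Dnmt3a, Dnmt3b and Dnmt3l spread widely between reporter collections, and KO exceeds FL for Dnmt3b and Dnmt3l.

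Between collections, the highest BRE-negative library exceeded the lowest in CPM 2.30-fold for Dnmt3a, 2.32-fold for Dnmt3b and 2.05-fold for Dnmt3l. The same ratio was 1.24 for Uhrf1, 1.08 for Uhrf2 and 1.04 for Dnmt1. In the BRE-positive fraction it was 2.10, 2.13 and 1.93 for Dnmt3a, Dnmt3b and Dnmt3l, and 1.18, 1.17 and 1.06 for Uhrf1, Uhrf2 and Dnmt1.

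Genes can be compared with each other only per length. On the TPM values the authors deposited, the order was Uhrf1, Dnmt1, Dnmt3l, Dnmt3b, Uhrf2 and Dnmt3a from high to low in 10 of 12 libraries. In the remaining pair, both of collection 2, Dnmt3a stood above Uhrf2. Mean TPM of Uhrf1 was 188 ± 23.9 (SD, n = 3) in BRE-negative, 191.5 ± 19.11 (n = 3) in BRE-positive, 318 ± 10.3 (n = 2) in FL and 354 ± 16.2 (n = 4) in KO. That of Dnmt3a was 13.1 ± 6.08, 12.8 ± 5.74, 6.13 ± 0.126 and 5.15 ± 0.8294 in the same groups.

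The order depends on the length behind the TPM, which the deposited table does not give. The length implied for Dnmt3a was 4.76 times that of Dnmt1, whereas its longest GENCODE transcript is 1.65 times and the union of its exons 2.26 times as long. With CPM per kilobase of the longest transcript, a scale chosen after seeing the data, Dnmt3l stood above Dnmt1 in 10 of 12 libraries and above every other gene of the set in KO replicate 3. Dnmt3a was the lowest of the 6 in every library on that scale.

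The length of a gene is the same in every library, so it scales a ratio of 2 genes without changing the order of the libraries. The TPM of Dnmt3b over that of Dnmt3a was 1.89 to 5.90 in BRE-negative, 1.63 to 4.93 in BRE-positive, 13.0 to 15.9 in FL and 24.9 to 31.1 in KO. Per kilobase of the longest transcript these ranges became 1.19 to 3.71, 1.02 to 3.10, 8.19 to 9.99 and 15.6 to 19.5. The ratio was thus lowest in the reporter cells, higher in FL and highest in KO, without overlap between these 3 on either scale. These ratios rest on values already given and were not tested.

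The cofactor gene gave another pattern. Dnmt3l over Dnmt3b was 1.50 to 2.11 in BRE-negative, 2.10 to 2.88 in BRE-positive, 1.14 and 1.55 in FL, and 1.23 to 1.37 in KO. The FL and KO ranges overlapped, and in each reporter pair the BRE-positive library had the higher ratio; neither was tested. Uhrf1 over Dnmt1 was 1.08 to 1.31, 1.13 to 1.34, 1.56 to 1.63 and 1.51 to 1.76 in the 4 groups in the same order.

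**Figure D2:**
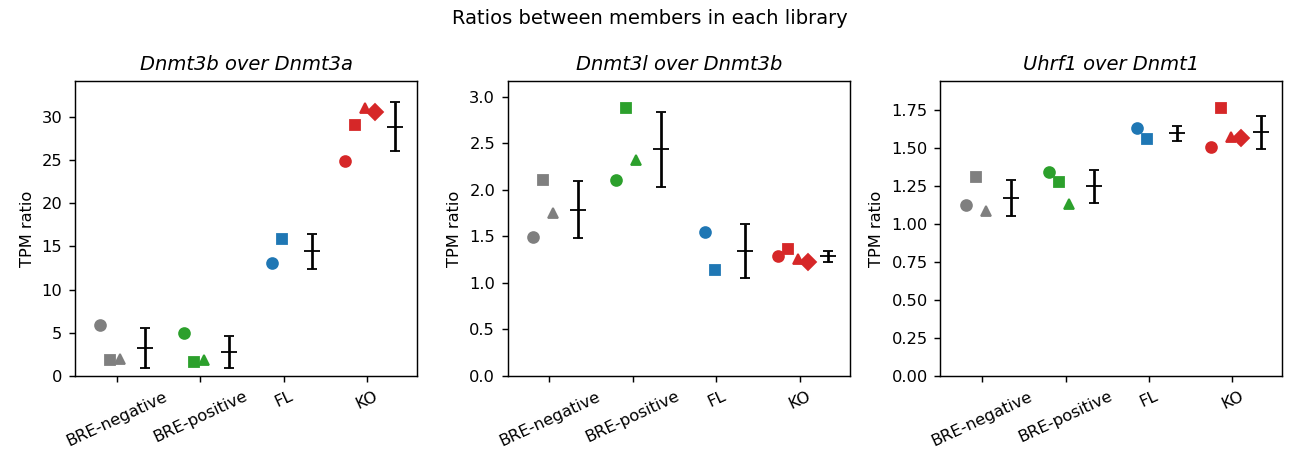
Ratio of deposited TPM values of 2 genes in each library (linear axes from 0; points, shapes and bars as mean ± SD in the plot of CPM by library). Dnmt3b over Dnmt3a separates reporter cells (up to 5.90), FL (13.0 to 15.9) and KO (24.9 to 31.1), while Dnmt3l over Dnmt3b overlaps between FL and KO.

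Loss of Smad1 and Smad5 in 2i went with more RNA of Dnmt3b and of its cofactor. Dnmt3b was higher in all 4 KO libraries than in both FL libraries, 1.73-fold on average (log2 fold change 0.79 ± 0.18 SE, adjusted p = 0.0447, edgeR quasi-likelihood test with Benjamini-Hochberg adjustment). Dnmt3l was 1.67-fold higher (0.74 ± 0.16, adjusted p = 0.0421). The size differed between KO libraries: over the FL mean, Dnmt3b stood at 1.33, 1.58, 1.99 and 2.01 times and Dnmt3l at 1.29, 1.63, 1.88 and 1.86 times in KO replicates 1 to 4.

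The other 4 genes did not pass the test. The log2 fold change of Dnmt1 was 0.19 ± 0.06 (adjusted p = 0.119) and that of Uhrf1 0.19 ± 0.06 (adjusted p = 0.1295). Dnmt3a stood at -0.22 ± 0.10 (adjusted p = 0.253) and Uhrf2 at -0.17 ± 0.09 (adjusted p = 0.299). All 6 genes had FL and KO values that did not overlap, as did 34.5% of the 15933 genes tested. In all, 2 of 6 were called higher and none lower, where calls (adjusted p under 0.05) made up 5.03% of genes, 1.85% higher and 3.18% lower.

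Both calls lie close to the threshold. Dnmt3b kept its direction in all 22 alternatives and its call in 6, and Dnmt3l its direction in all 22 and its call in 7. Leaving out KO replicate 1 kept both calls (adjusted p = 0.0191 for Dnmt3b and 0.0133 for Dnmt3l), and leaving out any other library lost both. For Dnmt3b the adjusted p was 0.312 without FL replicate 1, 0.137 without FL replicate 2, and 0.0686, 0.110 and 0.107 without KO replicates 2, 3 and 4. For Dnmt3l it was 0.180, 0.208, 0.0734, 0.104 and 0.105 in the same order.

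Which KO libraries share a parental line with which FL library is not known, so each of the 6 possible assignments was fitted with the line as a block. Dnmt3b lay between 0.76 and 0.79 in all 6 and passed in 1, and Dnmt3l lay between 0.72 and 0.74 and passed in 2. The 6 are not equally near to the data: over all genes, deviations from the group mean correlated at 0.203 and 0.348 between FL replicate 1 and KO replicates 1 and 2, and at 0.315 and 0.279 between FL replicate 2 and KO replicates 3 and 4. With only 2 FL libraries the opposite combinations have the same values with a negative sign. With FL replicate 1 blocked with KO replicates 1 and 2, both genes passed (adjusted p = 6.39e-04 for Dnmt3b and 0.00673 for Dnmt3l). This grouping comes from the values and not from a label, so it is not used as the design. DESeq2 called both (adjusted p = 3.27e-04 for Dnmt3b and 3.13e-04 for Dnmt3l). An offset for transcript length and GC content left Dnmt3b and Dnmt3l called and added Dnmt1 (0.27 ± 0.06, adjusted p = 0.0362) and Uhrf1 (0.28 ± 0.06, adjusted p = 0.0374). With that offset the calls over all genes changed from 294 higher and 507 lower to 824 higher and 502 lower.

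**Figure D3:**
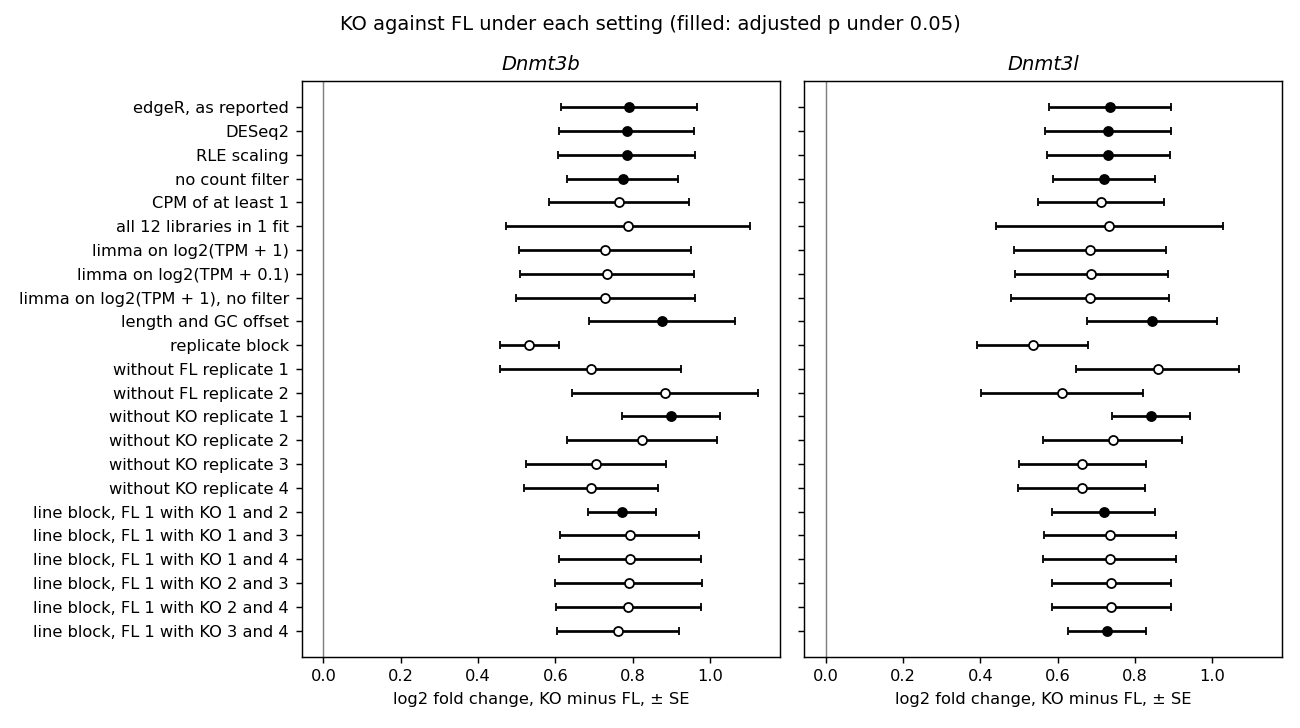
Log2 fold change (KO minus FL, linear axis, ± SE) of Dnmt3b and Dnmt3l as reported and under each alternative, 1 per line; filled points passed the adjusted p of 0.05. Every point lies above 0, between 0.53 and 0.90, and most alternatives leave the point open.

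Some genes that work with this set passed the test between KO and FL, more of them lower than higher in KO. Over all genes 5.03% were called, 3.18% lower and 1.85% higher, and nothing is read from the number or direction of these calls. None of the 12 maintenance partners was called (median log2 fold change 0.12, against 0.01 over all genes), among them Hells, a chromatin remodeller, with 0.12 ± 0.07. Of 8 genes for the removal of methylation, Gadd45b fell (-1.26 ± 0.11, adjusted p = 0.00607), and so did Tet2, a 5-methylcytosine oxidase (-0.75 ± 0.15, adjusted p = 0.0362). Of 11 known regulators of the de novo genes, 3 were lower and none higher. Prdm14, which represses Dnmt3b in these cells, fell from 54.2 ± 1.38 CPM (SD, n = 2) to 35.6 ± 3.52 (n = 4; -0.61 ± 0.10, adjusted p = 0.0184).

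Nanog, a pluripotency factor, fell too (-0.60 ± 0.06, adjusted p = 0.00613), as did Dusp9, a phosphatase of the MAP kinase pathway (-1.85 ± 0.24, adjusted p = 0.0115). Of 7 genes of methyl donor supply, Shmt1 rose (0.34 ± 0.07, adjusted p = 0.0335). Without FL replicate 1, no gene of any kind passed (0 of 16580, with 1948 at an unadjusted p under 0.05), and the adjusted p was 0.0595 for Gadd45b, 0.0631 for Dusp9 and Nanog, 0.161 for Prdm14, 0.200 for Tet2 and 0.226 for Shmt1. Without FL replicate 2, Prdm14 (adjusted p = 0.0789), Tet2 (0.142) and Shmt1 (0.170) were lost as well. Tet2 and Shmt1 were also lost without KO replicate 3 (0.0821 and 0.103) and KO replicate 4 (0.0879 and 0.102), and Shmt1 without KO replicate 2 (0.0678). All 12 libraries in 1 fit lost Tet2 (0.0721) and Nanog (0.133), limma on log2(TPM + 1) lost Tet2 (0.117) and Shmt1 (0.164), unfiltered limma also Dusp9 (0.0510), and the line as a block lost Tet2 in 3 and Shmt1 in 4 of the 6 assignments. None of 12 S phase genes, 8 histone methylation genes or 7 methyl-CpG readers and their relatives passed. S phase genes had a median of 0.00 here, beside 0.19 for Dnmt1 and for Uhrf1, neither of which passed. Whether these genes differ from the S phase genes was not tested.

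Within serum, the BRE-positive fraction had less Dnmt3b RNA than the BRE-negative fraction of the same collection. Dnmt3b in BRE-positive cells stood at 0.786, 0.741 and 0.856 times the BRE-negative level in the 3 pairs (log2 fold change -0.32 ± 0.06, adjusted p = 0.00897, edgeR with the pair as a block). The pairs agreed in direction although the level itself varied 2.32-fold between the BRE-negative collections. The call held when any 1 pair was left out, with log2 fold changes of -0.37 to -0.27.

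Dnmt3b was the only 1 of the 6 to pass, where 2.97% of 15435 genes were called, 1.96% higher and 1.02% lower. Dnmt1 stood at 0.852, 0.912 and 0.897 times (-0.15 ± 0.05, adjusted p = 0.1285) and Dnmt3a at 0.941, 0.858 and 0.911 times (-0.13 ± 0.05, adjusted p = 0.211). Dnmt3l went the other way at 1.10, 1.01 and 1.13 times (0.13 ± 0.05, adjusted p = 0.230). Uhrf1 (-0.06 ± 0.05, adjusted p = 0.579) and Uhrf2 (0.03 ± 0.05, adjusted p = 0.839) had pairs on both sides of 1. Dnmt1, Dnmt3a, Dnmt3b and Dnmt3l each went 1 way in all 3 pairs, as did 40.7% of the genes tested.

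Without pair 1, Dnmt1 (-0.12 ± 0.04, adjusted p = 0.0295) and Dnmt3a (-0.16 ± 0.04, adjusted p = 0.00662) passed as well. The Dnmt3b call rests on the pairing: without the block its log2 fold change was -0.33 ± 0.33 and the adjusted p 0.9996, and limma on the deposited TPM gave -0.22 ± 0.07 (adjusted p = 0.202 on log2(TPM + 1)).

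**Figure D4:**
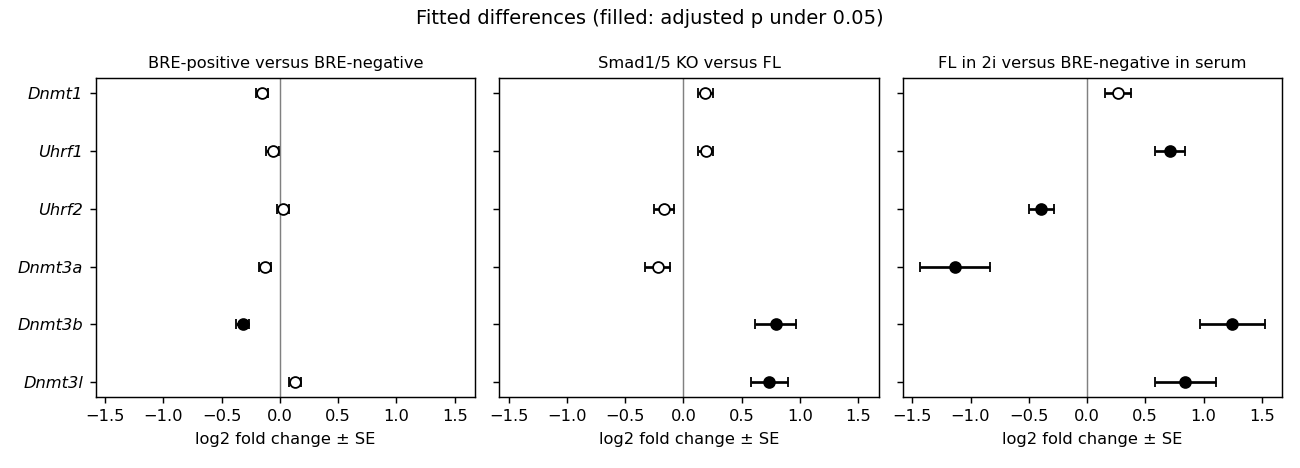
Log2 fold change ± SE (linear axis) of each gene in the 3 comparisons, from the edgeR fits; filled points passed the adjusted p of 0.05. Dnmt3b is the gene that passes in all 3, at -0.32, 0.79 and 1.25, and the middle and right panels share the FL libraries.

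Of 11 tested feeder markers, 3 (Acta2, Col1a2 and Fbln2) were lower in BRE-positive libraries and none higher, with a median of -0.42. Over all genes 1.02% were called lower and 1.96% higher, and the list was not tested as a set. The 3 calls were lost with all 12 libraries in 1 fit, in the limma fits and without the replicate block, where no gene of any kind passed. The part of feeder RNA in the Dnmt3b difference was not tested. None of 12 S phase genes passed (median -0.10, against 0.00 over all genes). Of 12 maintenance partners, Zfp57, which protects imprinted methylation, rose (0.24 ± 0.05, adjusted p = 0.0244), and Dppa3, which opposes UHRF1, fell from 5.96 to 2.91 CPM (-1.01 ± 0.15, adjusted p = 0.00357).

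Of 8 histone methylation genes, Kmt2a (0.37 ± 0.06, adjusted p = 0.00446) and Kmt2d (0.34 ± 0.07, adjusted p = 0.0270), both writers of H3K4 methylation, rose. Of 8 removal genes, Tet1 rose (0.25 ± 0.05, adjusted p = 0.0210). Among 10 regulators, Spry2 rose (0.23 ± 0.05, adjusted p = 0.0249) and Zic2 fell (-0.41 ± 0.09, adjusted p = 0.0286). Of 7 methyl-CpG readers and their relatives, Mbd3 fell (-0.24 ± 0.06, adjusted p = 0.0482), and of 7 methyl donor genes Ahcy fell (-0.22 ± 0.05, adjusted p = 0.0344). Leaving out pair 2 lost Zfp57 (adjusted p = 0.0673), Kmt2d (0.142), Tet1 (0.144), Spry2 (0.0874), Zic2 (0.136), Mbd3 (0.117) and Ahcy (0.0715). Leaving out pair 3 lost Zfp57 (0.185), Tet1 (0.251), Spry2 (0.269), Zic2 (0.208), Mbd3 (0.327) and Ahcy (0.412). The length and GC offset ended the calls of Kmt2d (0.16 ± 0.05, adjusted p = 0.0908), Tet1 (0.06 ± 0.04, 0.527) and Mbd3 (-0.18 ± 0.06, 0.102), and DESeq2 those of Mbd3 (0.133) and Zic2 (0.108). With the length and GC offset, the calls over all genes changed from 302 higher and 157 lower to 181 higher and 231 lower.

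The third comparison set FL cells in 2i against BRE-negative cells in serum. Culture, feeders, strain, line, reporter and sorting all differ between these groups and cannot be told apart. Dnmt3b was 2.37-fold higher in FL (log2 fold change 1.25 ± 0.28, adjusted p = 0.00692), Dnmt3l 1.79-fold higher (0.84 ± 0.26, adjusted p = 0.0289) and Uhrf1 1.64-fold higher (0.71 ± 0.13, adjusted p = 0.00255). Dnmt3a was 2.20-fold lower in FL (-1.13 ± 0.30, adjusted p = 0.0143) and Uhrf2 1.31-fold lower (-0.39 ± 0.11, adjusted p = 0.0172).

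The genes for the de novo enzymes thus lay on opposite sides, Dnmt3b higher and Dnmt3a lower in FL, and so did Uhrf1 and Uhrf2. Dnmt1 stood at 0.26 ± 0.11 (adjusted p = 0.0773) and did not pass. The 5 calls of 6 stand against 45.7% of 16360 genes called, 23.4% higher and 22.3% lower, and the groups of all 6 did not overlap, as was so for 67.4% of genes. Calls were common in this comparison, and nothing is read from the count of members.

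Dnmt3b and Uhrf1 passed in all 16 alternatives. Leaving out FL replicate 1 lost Dnmt3a (adjusted p = 0.0552), Dnmt3l (0.125) and Uhrf2 (0.0880), and leaving out FL replicate 2 lost the same genes (0.0668 for Dnmt3a, 0.0513 for Dnmt3l and 0.180 for Uhrf2). The length and GC offset lost Dnmt3l (0.0630). Leaving out BRE-negative replicate 1 brought Dnmt1 past the threshold (adjusted p = 0.0498). Dnmt1 also passed with DESeq2 (0.0324), with all 12 libraries in 1 fit (0.0138) and with the length and GC offset (0.51 ± 0.11, 0.0047). It was called in 5 of the 16 alternatives. With BRE-positive in place of BRE-negative libraries all 6 passed. This comparison uses the same FL libraries as the KO comparison, so the values of both stand side by side and are not independent: Dnmt3b 1.25 and 0.79, Dnmt3l 0.84 and 0.74, Uhrf1 0.71 and 0.19, Dnmt1 0.26 and 0.19, Dnmt3a -1.13 and -0.22, and Uhrf2 -0.39 and -0.17.

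Partners of the set differed between these groups in both directions. Over all genes 23.4% were called higher and 22.3% lower, and nothing is read from the counts of partners called. Of 12 maintenance partners, 2 were higher in FL and 1 lower. Dppa3 was higher (2.83 ± 0.62, adjusted p = 0.00590; without FL replicate 2, 1.70 ± 0.58 and 0.0536; by unfiltered limma 0.0527), and Pclaf, a partner of the replication clamp, was lower (-1.86 ± 0.15, adjusted p = 4.90e-05). Of 8 removal genes, 1 was higher and 3 lower, with Gadd45a at -1.80 ± 0.44 (adjusted p = 0.00986). Its FL libraries had 22.3 and 6.01 CPM, and its log2 fold change was -3.03 without FL replicate 1 and -1.13 without FL replicate 2. Of 7 methyl-CpG readers and their relatives, 4 were higher and 2 lower, with Zbtb38 at 1.11 ± 0.15 (adjusted p = 5.74e-04). Of 8 histone methylation genes, 2 were higher and 3 lower, with Nsd2, which writes H3K36 methylation, at -0.67 ± 0.12 (adjusted p = 0.00218).

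Of 12 S phase genes, 2 were higher and 4 lower (median -0.16), with Mcm3 at -0.73 ± 0.13 (adjusted p = 0.00215). Of 10 regulators tested, 4 were higher and 4 lower. Dusp6 and Spry2, both induced by the MAP kinase pathway that 2i blocks, were lower at -3.50 ± 0.29 and -2.04 ± 0.23. Embryonic stem cell markers differed in both directions as well, with 3 of 8 higher in FL and 1 lower (median 0.13). All 11 tested feeder markers were lower in FL, with a median of -5.41. Only 4 of the list passed the filter on low counts between KO and FL. The others therefore passed here through the BRE-negative libraries, which fixed their direction, and nothing is read from this count. Of 6 tested primitive endoderm markers, 3 were lower (Dab2, Pdgfra and Sox7) and none higher, with a median of -1.47. Of 2 tested trophectoderm markers 1 was lower (Krt7), with a median of -1.02. Sox7 lost its call in 6 of 16 alternatives and Krt7 in 8 of 14. With BRE-positive in place of BRE-negative libraries the adjusted p (edgeR) was 0.086 for Sox7 and 0.135 for Krt7. Dab2 and Pdgfra lost theirs in unfiltered limma only. None of 4 early mesoderm markers passed (median -0.62). The part of these cell types in the differences of the set was not tested.

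Some genes are known to be kept silent by DNA methylation in these cells. Of 14 such genes, mainly of the germ line, 8 were high enough in the reporter cells to be tested there. Of these 8, 6 were higher in FL than in BRE-negative cells: Rhox5 at 297 against 5.08 CPM (5.87 ± 0.26, adjusted p = 4.07e-06), Mael at 96.8 against 4.25, Taf7l at 9.97 against 1.19, Dazl at 18.8 against 4.63, Tex19.1 at 150.9 against 53.4, and Sycp3 at 17.0 against 7.71. Sycp1 (4.10 against 4.87 CPM) and Tdrkh (1.17 against 2.08) did not pass. Over all genes 23.4% were called higher in this comparison. The list was chosen with earlier results of these data known, and it was not tested as a set.

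The other 6 were near 0 in the reporter cells, so that those which passed the filter on low counts did so through FL and are not counted. Among them Asz1 was at 0 counts in all BRE-negative libraries and at least 14.8-fold higher in FL, and Rhox2a likewise at least 12.6-fold higher, against a floor of 3 counts over the group. With FL replicate 2 alone these limits were 9.65-fold for Asz1 and 5.27-fold for Rhox2a, which had 21 and 6 counts in the FL libraries. These limits cover counting error only.

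In KO, where Dnmt3b and Dnmt3l were higher than in FL, 1 of 13 tested genes of this list passed, Taf7l, which fell from 9.97 to 5.16 CPM (-0.95 ± 0.15, adjusted p = 0.0185; 0.190 without FL replicate 1, 0.0546 without FL replicate 2 and 0.0511 without KO replicate 3). Its adjusted p was 0.0558 with limma at log2(TPM + 0.1) and 0.0834 when all 12 libraries were fitted together. The median of the 13 was -0.68, against 0.01 over all genes. Lists of other kinds had medians of similar size with no gene called: -0.68 for 4 tested feeder markers, -0.78 for 6 primitive endoderm markers and -0.44 for 2 trophectoderm markers. Those lists held few tested genes at low levels. In FL and KO libraries the feeder markers summed to 6.32 to 8.70 TPM, and the primitive endoderm markers to 2.235 to 3.165 TPM. The silent list summed to 383 to 1336 TPM there. Whether the median is particular to the silent genes was not tested. Rhox5 lay between 49.3 CPM, in KO replicate 1, and 348 in KO, against 285 and 309 in FL. KO replicate 1 was also the KO library with the least Dnmt3b and Dnmt3l by CPM, as well as the least Dnmt3a, Uhrf1 and Uhrf2 and the most Dnmt1. Any link of these levels to Rhox5, which was not called between KO and FL, was not tested. In BRE-positive cells Rhox5 fell from 5.08 to 2.35 CPM (-1.12 ± 0.15, adjusted p = 0.00153), and no other of the 8 tested genes passed.

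**Figure D5:**
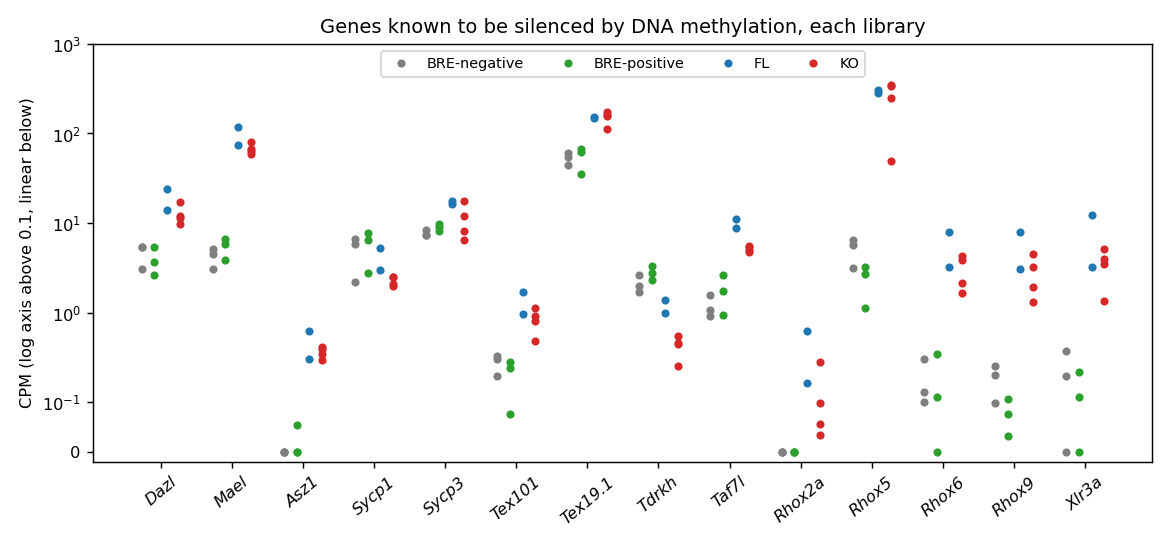
CPM of 14 genes known to be silenced by DNA methylation (vertical axis logarithmic above 0.1 and linear below), 1 point per library. FL and KO libraries lie far above the reporter libraries for Rhox5, Mael and Taf7l, and 1 KO library of Rhox5, replicate 1, lies at 49.3.

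Near relatives of the set were low. Dnmt3c, a recent copy beside Dnmt3b that is active in the male germ line, had 0 to 6 counts in each library and was not tested. Trdmt1, which has the fold of a DNA methyltransferase and modifies tRNA, had 10.2 ± 1.97 CPM in BRE-negative and 9.88 ± 0.633 in FL, and did not pass in any of the 3 comparisons (adjusted p = 0.718, 0.894 and 0.856).

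The genes most like each member over the 12 libraries were picked among 8820 protein-coding genes by Pearson r of log2 CPM. The 12 points share culture and strain within groups, and r includes the split between reporter and Smad1/5 cells. Dnmt3b was most like Gfer (0.988), Ctu1 (0.988) and Mrps17 (0.987), and Dnmt3l like Ppp1r16a (0.966), Txndc17 (0.964) and Dnmt3b itself (0.962). Dnmt1 was most like Cog1 (0.986), Uhrf1 like Josd1 (0.993), Uhrf2 like Tro (0.987) and Dnmt3a like Fam60a (0.976). Within groups, after each group mean was removed, r was 0.891 between Dnmt3b and Dnmt3l, -0.137 between Dnmt3a and Dnmt3b, and 0.0984 between Dnmt1 and Uhrf1. It was 0.796 between Dnmt3l and Uhrf1, 0.511 between Dnmt3b and Uhrf1 and -0.602 between Dnmt1 and Uhrf2. No pair of the set lay outside -0.602 to 0.891. Reporter libraries of the same collection are not independent in these values.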

How the data were processed

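Total RNA was sequenced after ribosomal RNA removal with a stranded kit, per the labels' protocols. Per the submitters' processing notes, the builds named were GRCm38.p4 and mm10, and the tools included featureCounts 1.4.6, STAR 2.4.1d (an aligner) and DESeq2 1.6.3. Annotation release and strand setting: not given in the sources used here. The authors deposited raw counts of 39179 Ensembl genes and a TPM table. The deposited TPM signal equals (count + 1) over 1 length per gene, scaled per library, as checked on the values. How the authors made it is not described.

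Counts were tested with edgeR 4.0.16 (R 4.3.3): quasi-likelihood fit, TMM, filterByExpr at a count of 10 and a total of 15, Benjamini-Hochberg adjusted p under 0.05. Each fit ran on all genes of the groups compared. The reporter fit had the pair as a block, since the series states paired collection. Same-numbered reporter libraries deviated together (r = 0.604, 0.441 and 0.379, against -0.442 to 0.110 otherwise). The KO fit had no block and counts the 4 KO libraries as independent, although they come from 2 lines. Printed CPM use TMM over all 12 libraries. Alternatives used DESeq2 1.42.0, RLE scaling, other filters, all 12 libraries in 1 fit, limma 3.58.1 on log2(TPM + 1) and log2(TPM + 0.1), an offset smooth in length and GC content, blocks and left-out libraries. The fits were tested on simulated counts. The genes and the 14 gene lists (117 genes) were chosen with earlier results of these data known. Named genes are the 6 members, up to 3 called genes per list and comparison by size of change, and the 3 most alike genes. Hells, Trdmt1, Dnmt3c and the silent genes beyond the first 3 were named after their values were seen. One gene that this rule names is not reported here.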

Additional observations from a re-analysis of the deposited data

How the results depend on the processing

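No call of the 6 genes reversed under any alternative run. Sign changes were limited to Uhrf1 (3 limma fits) and Uhrf2 (without pair 1) between the reporter fractions, neither of which passed. Between the fractions, 459 genes and 1 of the 6 were called. No count filter gave 1010 and 2, the length and GC offset 3 of the 6, and leaving out a pair 200 to 2225 genes (2225 without pair 1, 397 without pair 2, 200 without pair 3) and 1 to 3 of the 6. All 12 libraries in 1 fit, the 3 limma fits and no replicate block each gave 0 genes and 0 of the 6. At an unadjusted p under 0.05 there were 516 genes with all 12 libraries, 2679, 2681 and 4189 with limma at log2(TPM + 1), log2(TPM + 0.1) and without a filter, and 343 with no replicate block, while DESeq2 called 323.

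Between KO and FL, 801 genes and 2 of the 6 were called. DESeq2 gave 1498 genes, the offset 1326 and 4 of the 6, and limma 198 (39 higher, 159 lower), 97 (27, 70) and, unfiltered, 360 (32, 328) with 0 of the 6. A filter at 1 CPM and all 12 libraries in 1 fit gave 0 of the 6. Leaving out a library gave 0 to 857 genes and 0 to 2 of the 6: 0 genes without FL replicate 1, 142 without FL replicate 2, 857 without KO replicate 1 and 538, 236 and 215 without KO replicates 2, 3 and 4. Where 1 FL library remained, it was assumed to vary like the KO libraries. With the parental line as a block, FL 1 with KO 1 and 2 gave 2927 genes, with KO 1 and 3 250, with KO 1 and 4 325, with KO 2 and 3 380, with KO 2 and 4 419 and with KO 3 and 4 498, and 2, 0, 0, 0, 0 and 1 of the 6.

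The replicate number as a block between KO and FL left only numbers 1 and 2 and called 0 genes (2589 at an unadjusted p under 0.05) and 0 of the 6, with 0.53 for Dnmt3b and for Dnmt3l. The number is not a pairing there: same-numbered libraries correlated at 0.203 and -0.348, while FL replicate 1 correlated at 0.348 with KO replicate 2, and FL replicate 2 at 0.315 and 0.279 with KO replicates 3 and 4. Between FL and BRE-negative, the replicate block called 5978 of 16360 genes and 5 of the 6, against 7474 and 5 without it. In that comparison limma called 3, 3 and, unfiltered, 2 of the 6, and leaving out a library gave 4623 to 8247 genes (4623 without FL replicate 1, 4761 without FL replicate 2) and 2 to 6 of the 6. The mean ratio of Dnmt3b to Dnmt3a was 14.5 in FL and 28.9 in KO by TPM, and 9.09 and 18.2 by CPM per kilobase of the longest transcript, a scale chosen after seeing the data. Except where fewer libraries, other filters or other lengths are the change itself, the cause was not tested.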
